A study of Mus musculus with 8 samples.

Results

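The transcripts described here are the spliced noncoding RNAs of *Gas5*, *Zfas1*, *Snhg1*, *Snhg3*, *Snhg4*, *Snhg5*, *Snhg6*, *Snhg8*, and *Snhg12*, the host genes of small nucleolar RNAs (snoRNAs). They were listed by symbol, as cytoplasmic and decay-sensitive noncoding RNAs, and compared with noncoding RNAs that stay in the nucleus. Of the 9 listed genes, 8 had a row among the 52550 genes of the count table, and all 8 were among the 10754 genes tested. *Snhg4* was not matched to a row and is not analysed here.

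The counts come from RNA immunoprecipitation followed by sequencing (RIP-seq), in which an antibody to a protein tag pulls down RNA along with that protein, and the input RNA is sequenced for reference. All 8 libraries were made from *Eif4a2* KO mouse ESCs, derived from a parental line with a Rex1-GFPd2 reporter and a Cas9 transgene and grown in ES-DMEM with the inhibitor pair 2i and LIF. The cells carried either the empty vector (EV), and thus no Flag-tagged protein, or a Flag-tagged *Eif4a2* transgene (Eif4a2flag in the labels), which according to the paper encodes full-length eIF4A2 (eIF4A2FL), an RNA helicase of translation initiation. An input and an anti-Flag RIP (5 µg of antibody, 3 h) gave 4 groups of 2 libraries: input EV, RIP EV, input eIF4A2FL, and RIP eIF4A2FL. The QuantSeq kit used reads a tag near the 3′ end of poly(A) RNA. Rescue lines were clonal piggyBac lines. For eIF4A2FL, the study's supplement names a pair of clones as the biological replicates of the RIP. For EV nothing says whether the replicates were separate cultures or clones, so the spread between EV libraries may be technical. One label field of RIP eIF4A2FL replicate 2 names *Eif4a3*, whereas its other fields name *Eif4a2*.

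A snoRNA host gene is transcribed and spliced, its introns are trimmed into snoRNAs that guide chemical modification of ribosomal and other RNAs, and the joined exons leave as a host transcript. The exons of these hosts encode no conserved protein, but the host RNAs reach the cytoplasm, where ribosomes can engage short reading frames and nonsense-mediated decay can remove the transcript. Many hosts start with a 5′ terminal oligopyrimidine (5′TOP) tract, a C followed by pyrimidines at the first bases of the RNA, which they share with ribosomal protein mRNAs and which ties their use to mTOR signaling.

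Because the 5′ end is what these transcripts are best known to share, the bases around their annotated starts are shown. Each window is 30 bases (15 on each side of the RefSeq start, GRCm38.p6), and capitals mark a C followed by at least 4 letters that are each C or T, searched on the transcript strand only.
*Gas5*, chr1:161034586-161034615, plus strand: agggggcgggcccgcgagctcgacagcccg
*Gas5*, chr1:161035151-161035180, plus strand: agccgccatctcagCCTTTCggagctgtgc
*Snhg12*, chr4:132308663-132308692, plus strand: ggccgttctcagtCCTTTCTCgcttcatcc
*Snhg5*, chr9:88522883-88522912, minus strand: gagctgcggtgaaccgggctcgttCTTTTa
*Snhg8*, chr3:123508322-123508351, minus strand: gcaccgttcagaagtCTCTTTggctgcgat
*Snhg3*, chr4:132353672-132353701, minus strand: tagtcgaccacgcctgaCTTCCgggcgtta
*Snhg1*, chr19:8723472-8723501, plus strand: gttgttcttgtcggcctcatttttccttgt
*Zfas1*, chr2:167062919-167062948, plus strand: ttgactgcgccccgggcggccgcaggtctc

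The run was present in 5 of these 8 windows, and in 36.4% of all 32851 windows of this length. By gene, it was present in 5 of the 7 with a window (*Gas5* in 1 of its 2 windows, *Snhg3*, *Snhg5*, *Snhg8*, and *Snhg12*). It was longest in *Snhg12*, with 8 bases. A match describes letters near an annotated start and is not a measured start site. *Snhg6* had no window in the RefSeq table.

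The shallowest library was RIP EV replicate 1, with 2044853 gene reads, and the deepest RIP eIF4A2FL replicate 1, with 11206420. In RIP EV, 45.8% and 29.7% of the reads in the table matched no annotated feature in the counting, against 3.30% and 4.13% in RIP eIF4A2FL and 8.58% to 17.6% in the inputs. The spread between the RIP EV libraries was also the widest, with an edgeR biological coefficient of variation of 171%, against 23.1% to 30.1% in the other groups. Whether these differences take part in the results below was not tested. Every library held tags of *Eif4a2* itself (47.4 to 126 CPM), so that a 3′ tag count does not check the knockout. In the inputs, 8 of 8 pluripotency markers reached a CPM of 1 (reads scaled to a common total of gene reads) in every library, with a summed level of 1965 to 2639 CPM. Of 13 markers of fibroblasts, endoderm, mesoderm, and formative epiblast, 10 were under 1 CPM in every input and 4 were at 0. The summed level of the 13 was 20.8 to 65.8 CPM. The 2 that reached 1 CPM in every input were the formative markers *Otx2* (15.5 to 54.1 CPM) and *Pou3f1* (4.54 to 9.80 CPM). The pluripotency marker *Pou5f1* was at 5.78 to 19.7 CPM.

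The first comparison asks whether re-expression of Flag-eIF4A2FL changed the abundance of the host transcripts, and no change was detected. In cultures measured in bulk, fewer cells with a transcript and less of it per cell cannot be told apart. All 8 were well expressed in the inputs. *Gas5*, which is named for its rise at growth arrest and hosts box C/D snoRNAs, was at 482 and 712 CPM in EV inputs against 660 and 667 CPM in eIF4A2FL inputs. *Zfas1*, transcribed from the promoter region of *Znfx1* in the other direction and host of *Snord12*, was at 481 and 563 CPM in EV inputs against 504 and 545 CPM in eIF4A2FL inputs. *Snhg1*, the host of *Snord22* and its neighbors, was at 357 and 481 CPM in EV inputs against 358 and 531 CPM in eIF4A2FL inputs. The ranges of the groups overlapped for each of these 3 transcripts.

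Input levels of the other 5 were lower or more uneven. *Snhg3*, the host of *Snora73a* and *Snora73b*, was at 292 and 667 CPM in EV inputs against 349 and 552 CPM in eIF4A2FL inputs. *Snhg8*, the host of *Snora24*, was at 233 and 447 CPM in EV inputs against 327 and 289 CPM in eIF4A2FL inputs. *Snhg5*, the host of *Snord50a* and *Snord50b*, was at 183 and 301 CPM in EV inputs against 222 and 329 CPM in eIF4A2FL inputs. The least abundant were *Snhg12* (56.9 and 83.0 CPM in EV inputs, 47.8 and 82.9 CPM in eIF4A2FL inputs), whose introns hold *Snora16a*, *Snora44*, *Snora61*, and *Snord99*, and *Snhg6* (59.4 and 99.2 CPM in EV inputs, 67.7 and 48.2 CPM in eIF4A2FL inputs), the host of *Snord87*. Log2 fold changes of input eIF4A2FL against input EV ran from -0.42 (*Snhg6*) to 0.22 (*Snhg5*), with 4 members above 0 and 4 below. No member passed an adjusted p of 0.05 in edgeR, and 0 of all genes did (0% called in each direction). Without adjustment, 0.697% of genes were higher and 0.549% lower at a p under 0.05, and DESeq2 called 16 genes, none of them a member.

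**Figure D1:**
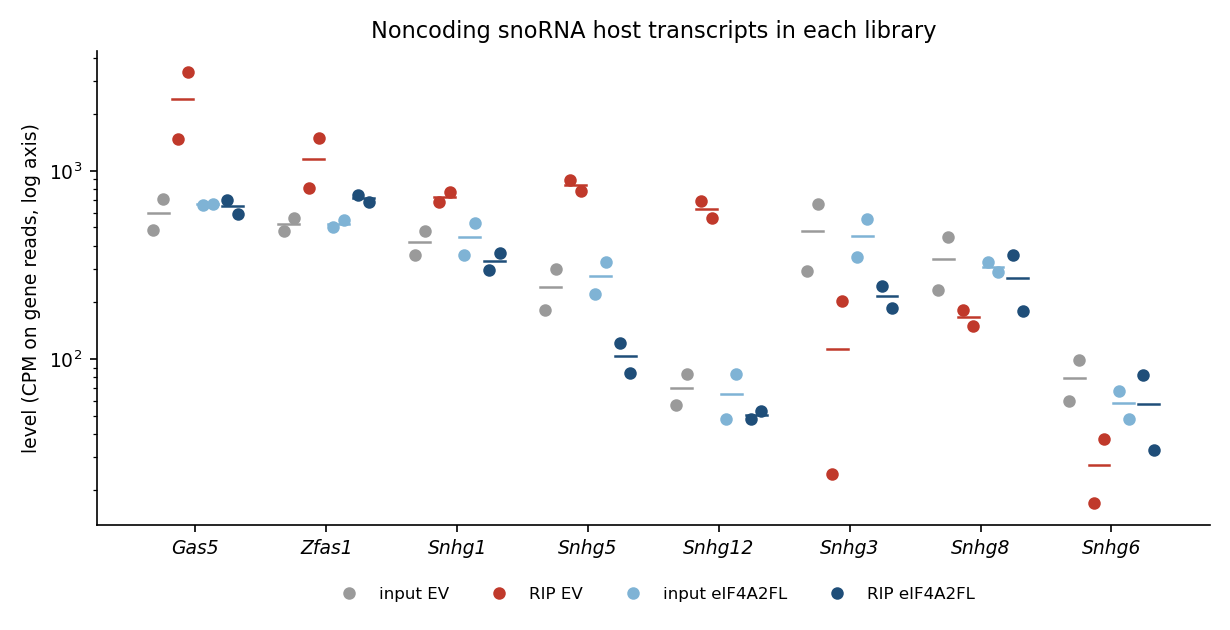
Level of each host transcript (x axis) in CPM on gene reads (y axis, logarithmic) in each of the 8 libraries (points) with the mean of each pair (line). *Gas5*, *Zfas1*, *Snhg1*, *Snhg5*, and *Snhg12* lay highest in RIP EV, whereas *Snhg3*, *Snhg8*, and *Snhg6* had their lowest mean there.

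The second comparison asks which host transcripts the anti-Flag antibody and beads recovered from cells without any Flag-tagged protein, that is, the background of the immunoprecipitation. The family split. *Snhg12*, *Gas5*, *Snhg5*, and *Zfas1* were higher in RIP EV than in input EV, *Snhg1* lay above input without passing the test, and *Snhg3*, *Snhg6*, and *Snhg8* lay below input without passing it. In edgeR, 4 of 8 members were called higher and 0 lower, where 4.5% of all genes were called higher and 26.3% lower. The median log2 fold change was 0.96 over the 8 members and -0.64 over all genes tested.

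*Snhg12* stood out most. It was at 695 and 562 CPM in RIP EV, and both values lay above all 6 other libraries, which ran from 47.8 to 83.0 CPM. Its log2 fold change of RIP EV against input EV was 3.17 (SE 0.384, adjusted p = 0.00805, edgeR), or 9.02-fold. *Gas5* reached 1481 and 3345 CPM in RIP EV, the second being the highest level of any member in any library. Both values lay above all other *Gas5* values, and the log2 fold change was 2.01 (SE 0.40, adjusted p = 0.0112), or 1.28 without RIP EV replicate 2 and 2.46 without RIP EV replicate 1. *Snhg5* reached 900 and 784 CPM, again above every other library, with a log2 fold change of 1.81 (SE 0.35, adjusted p = 0.0102).

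*Zfas1* and *Snhg1* moved less. *Zfas1* was at 809 and 1499 CPM in RIP EV, above both EV inputs, with a log2 fold change of 1.13 (SE 0.311, adjusted p = 0.0338), or 0.59 without RIP EV replicate 2. *Snhg1* was at 680 and 777 CPM in RIP EV, which also lay above both EV inputs, but its log2 fold change of 0.80 (SE 0.286) had an adjusted p of 0.0820 in edgeR. DESeq2 on all 8 libraries called it higher (adjusted p = 0.0334), where 10% of genes were higher. By order alone, 5 of 8 members had both RIP EV libraries above both EV inputs and 3 had both below, while 14.6% of all genes tested were above and 44.9% below.

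The other 3 members had less signal in RIP EV than in input EV. *Snhg3* was uneven between the RIP EV libraries, with 24.5 CPM (50 reads) in replicate 1 and 203 CPM (678 reads) in replicate 2, and its log2 fold change of -2.08 carried an SE of 0.893 (adjusted p = 0.136). *Snhg6* was at 17.1 and 37.4 CPM (log2 fold change -1.54, SE 0.661, adjusted p = 0.136). *Snhg8* was at 182 and 150 CPM (log2 fold change -1.02, SE 0.428, adjusted p = 0.129). All of these 6 values lay below both EV inputs of their gene, yet relative to the median of all genes the differences were smaller, since that median was itself at -0.64.

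These calls rest on the spread shared over all 8 libraries. With edgeR on the 4 EV libraries alone no gene of the table was called, and the adjusted p of *Snhg12* was then 0.0719 (5.4e-13 to 0.0719 over all alternatives). The calls other than that of *Snhg12* did not hold without input EV replicate 1, where the log2 fold change of *Snhg5* was 1.55. *Zfas1* passed neither with the replicate number as a block nor without a filter on low counts. Its call was also lost without each single library other than RIP EV replicate 1. Without RIP EV replicate 1, *Snhg3* and *Snhg8* were called lower (42.3% of genes lower), and without RIP EV replicate 2, *Snhg3* and *Snhg6* (60.3%).

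The third comparison asks which host transcripts were enriched with Flag-eIF4A2FL over their input, and none passed the test. No member was called in either direction, against 0% of genes called higher and 0.0558% lower in edgeR. Without adjustment, 3.08% of all genes were higher and 5.88% lower at a p under 0.05. Of the 8 members, 7 had a log2 fold change below 0, their median was -0.59, and the median of all genes was 0.02. With library size alone as the scale, the members' median was -0.29 and that of all genes 0.32.

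*Snhg5* lay lowest against its input. It was at 122 and 84.4 CPM in RIP eIF4A2FL, below all 6 other libraries, and its log2 fold change against input eIF4A2FL was -1.72 (SE 0.349, unadjusted p = 0.00203, adjusted p = 0.195, edgeR). *Snhg3* was at 245 and 186 CPM, below both eIF4A2FL inputs (log2 fold change -1.36, SE 0.871, adjusted p = 0.812). *Zfas1* was the only member above its input in both libraries, at 748 and 681 CPM, although the log2 fold change was 0.14 (SE 0.307). By order of CPM, 1 of 8 members had both RIP libraries above both inputs and 2 had both below, against 45.8% and 18.7% of all genes.

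The remaining members overlapped with their inputs in CPM. *Gas5* was at 701 and 592 CPM in RIP eIF4A2FL (log2 fold change -0.34), *Snhg1* at 297 and 365 CPM (-0.72), and *Snhg12* at 47.8 and 52.6 CPM (-0.68). On library sizes scaled by TMM, a factor that balances the bulk of genes between libraries, these 3 lay below both inputs as well, which made 5 of 8 members, against 29.9% of all genes. *Snhg8* was at 358 and 180 CPM (-0.51) and *Snhg6* at 81.8 and 32.8 CPM (-0.33), each with one RIP library above both inputs and the other below both.

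The absence of calls depended on the tool and on the libraries in the fit. *Snhg5* was called lower by DESeq2 on all 8 libraries (adjusted p = 0.00124, 0.00124 to 1.00 over all alternatives), where 4% of genes were lower. *Snhg5* and *Snhg3* were called lower with edgeR on the 4 eIF4A2FL libraries, where 8.46% of genes were lower, and also without either RIP EV library (7.86% and 7.23%).

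**Figure D2:**
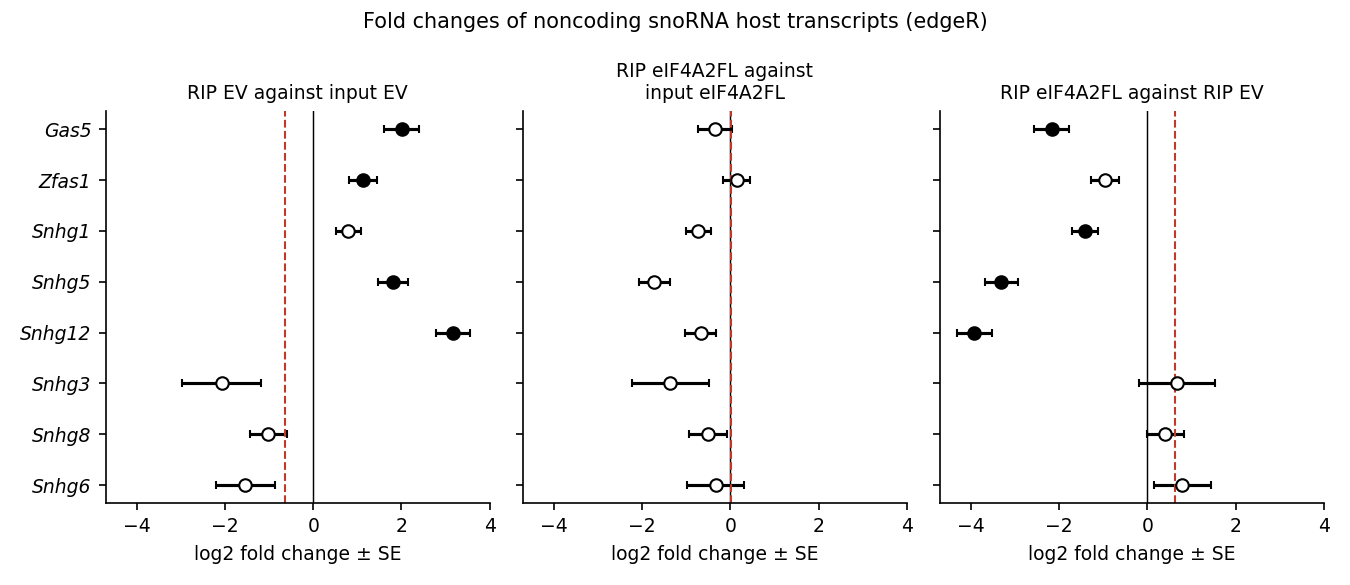
Log2 fold change of each host transcript (points, x axis) with its SE (bars) in 3 edgeR comparisons, filled where the adjusted p was under 0.05, with the median of all genes tested as a dashed line. *Snhg12*, *Gas5*, and *Snhg5* were called on the right in the first panel and on the left in the last, and no member was called in the middle panel.

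The fourth comparison sets the Flag-eIF4A2FL precipitate against the mock precipitate. *Snhg12*, *Snhg5*, *Gas5*, and *Snhg1* were lower in RIP eIF4A2FL than in RIP EV, and no member was higher. This made 4 of 8 members lower and 0 higher, where 5.46% of all genes were called lower and 24.8% higher. The median log2 fold change was -1.19 over the members and 0.64 over all genes, or -0.92 and 0.91 with library size alone. The RIP EV libraries also stand in the second comparison, so the values of these are not independent of each other.

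*Snhg12*, at 695 and 562 CPM in RIP EV, was at 47.8 and 52.6 CPM in RIP eIF4A2FL. This was a 15.2-fold difference (log2 fold change -3.93, SE 0.397, adjusted p = 0.00662, edgeR). *Snhg5* went from 900 and 784 CPM to 122 and 84.4 CPM, or 9.96-fold lower (log2 fold change -3.32, SE 0.371, adjusted p = 0.00662). The groups were far apart for both transcripts, and both were called lower without each single library in turn.

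*Gas5* went from 1481 and 3345 CPM to 701 and 592 CPM, or 4.50-fold lower (log2 fold change -2.17, SE 0.402, adjusted p = 0.00836). This size depended on the RIP EV libraries, with a log2 fold change of -1.39 without RIP EV replicate 2 and of -2.62 without RIP EV replicate 1. *Snhg1* went from 680 and 777 CPM to 297 and 365 CPM, or 2.67-fold lower (log2 fold change -1.41, SE 0.289, adjusted p = 0.0114). For *Gas5* and *Snhg1* the groups did not overlap either, but neither was called without RIP eIF4A2FL replicate 1 or replicate 2. *Zfas1*, at 809 and 1499 CPM in RIP EV, was below that at 748 and 681 CPM in RIP eIF4A2FL (log2 fold change -0.96, SE 0.31, adjusted p = 0.0587), and DESeq2 called it (adjusted p = 0.0241, with 10.5% of genes lower, 0.00483 to 0.348 over all alternatives).

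*Snhg3*, *Snhg6*, and *Snhg8* showed overlapping RIP groups. Their log2 fold changes were 0.66 (SE 0.862, adjusted p = 0.643), 0.79 (SE 0.65, adjusted p = 0.439), and 0.41 (SE 0.424, adjusted p = 0.554), on either side of the median of all genes. *Snhg3* and *Snhg6* were called higher without RIP EV replicate 2, where 58.1% of all genes were higher. The sign turned for *Snhg3* without RIP EV replicate 1 and for *Snhg8* without RIP eIF4A2FL replicate 1. By order, 5 of 8 members had both RIP eIF4A2FL libraries below both RIP EV libraries and 0 had both above, against 12.1% and 51.9% of all genes. With edgeR on the 4 RIP libraries alone no gene was called, and the adjusted p was 0.0650 for *Snhg12*, *Snhg5*, and *Snhg1* and 0.0678 for *Gas5* (over all alternatives at most 0.0650 for *Snhg12* and *Snhg5*, 0.0998 for *Snhg1*, and 0.0686 for *Gas5*).

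The last comparison takes the change from input to RIP in eIF4A2FL cells and subtracts the same change in EV cells, as an interaction term over all 8 libraries. It was lower for *Snhg12* (log2 -3.85, SE 0.518, adjusted p = 0.0176), *Snhg5* (-3.53, SE 0.494, adjusted p = 0.0176), *Gas5* (-2.35, SE 0.552, adjusted p = 0.0272, -2.80 to -1.58 without 1 library each), and *Snhg1* (-1.52, SE 0.404, adjusted p = 0.0401). Again 4 of 8 members were called lower and 0 higher, where 2.1% of all genes were lower and 19.2% higher. *Zfas1* was at -0.99 (adjusted p = 0.189), *Snhg8* at 0.51, *Snhg3* at 0.71, and *Snhg6* at 1.21, and none of these passed. No member was called without input EV replicate 1, or without any one of the eIF4A2FL libraries, and none of the genes in the table was either. For *Snhg5* the term ran from -3.84 (without input EV replicate 2) to -3.20 (without RIP eIF4A2FL replicate 2), in fits where 1 group rests on a lone library. With library size alone, *Gas5* (adjusted p = 0.0518) and *Snhg1* (0.102) were not called, and over all alternatives the highest adjusted p was 0.114 for *Gas5* and 0.174 for *Snhg1*.

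The makeup of the family can be read within each library, without any scaling between libraries. *Snhg12* took 2.65% (95% Wilson interval 2.41% to 2.92%) and 2.48% (2.20% to 2.79%) of the 8 transcripts' reads in input EV. It took 14.5% (13.8% to 15.2%) and 7.64% (7.31% to 7.97%) in RIP EV. In input eIF4A2FL its share was 1.89% (1.65% to 2.15%) and 2.72% (2.5% to 2.96%), and in RIP eIF4A2FL 1.84% (1.69% to 2.00%) and 2.42% (2.22% to 2.63%). RIP EV thus stood apart from the other 3 groups, among which the shares overlapped.

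*Gas5* took 30.9% (30.0% to 31.8%) and 45.5% (44.9% to 46.1%) of these reads in RIP EV, and 21.2% to 27.2% in the other 6 libraries. *Snhg3* took 13.6% to 19.9% in the inputs, 9.43% (9.10% to 9.77%) and 8.57% (8.21% to 8.95%) in RIP eIF4A2FL, and 0.511% (0.388% to 0.673%) and 2.76% (2.56% to 2.97%) in RIP EV. *Zfas1* took 28.8% and 31.3% in RIP eIF4A2FL, more than in any other library (16.8% to 22.4%). Without molecular identifiers in the reads, the intervals cover no error other than that of counting. All 8 together made up 2145 to 3353 CPM of the inputs, 4789 and 7356 CPM of RIP EV, and 2601 and 2174 CPM of RIP eIF4A2FL.

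**Figure D3:**
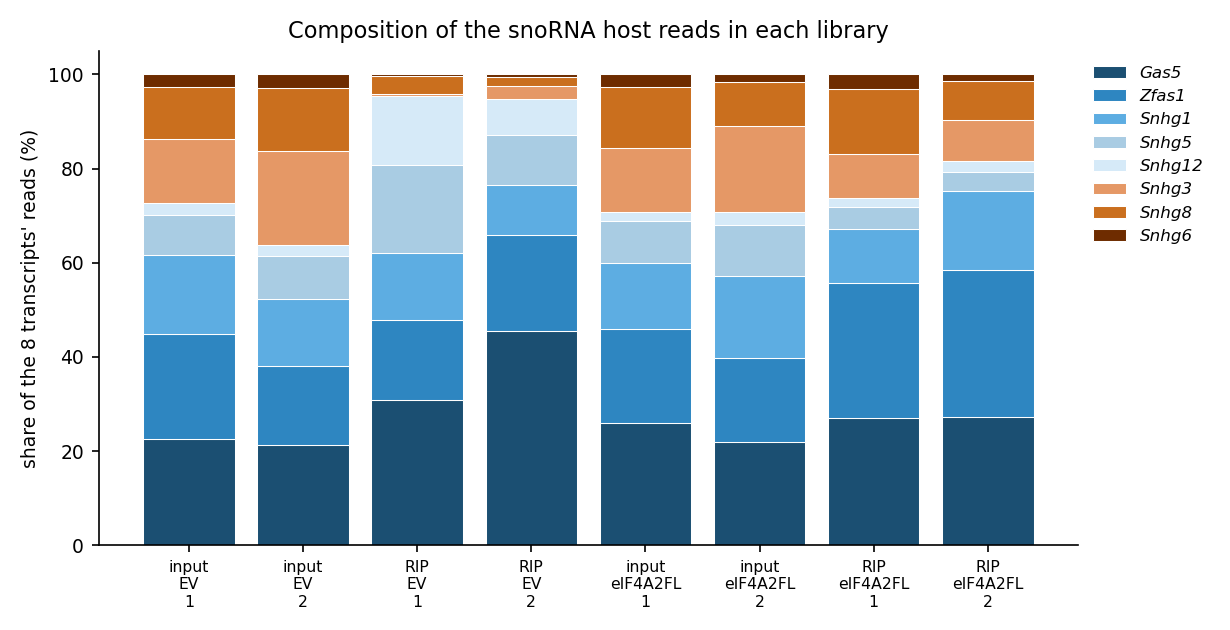
Share of the 8 host transcripts' reads (y axis, %) that each transcript took in each library (stacked bars). *Snhg12* (palest blue) took 14.5% and 7.64% in RIP EV and 1.84% to 2.72% elsewhere, and *Snhg3* (light orange) shrank to 0.511% and 2.76% in RIP EV.

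The 5 members above input in RIP EV and the 3 below also differed in gene structure, a feature looked up after their levels were known. In the GENCODE M21 annotation of GRCm38, the longest transcripts of *Snhg1* (chr19:8723475-8726443), *Gas5* (chr1:161034422-161038539), *Zfas1* (chr2:167062934-167065862), *Snhg12* (chr4:132308623-132311024), and *Snhg5* (chr9:88521050-88522929) measured 2728, 2556, 2302, 1538, and 1221 bases. Those of *Snhg6* (chr1:9941959-9944118), *Snhg8* (chr3:123507552-123508404), and *Snhg3* (chr4:132348014-132353686) measured 816, 776, and 581 bases. Over the 8 members, Spearman's rho of this length with the log2 fold change of RIP EV against input EV was 0.62, against 0.13 over 10751 genes and 0.10 over 254 noncoding genes. For the exonic percentage of the gene span it was 0.46 over the members and -0.03 over the 10751 genes. For mean input CPM it was -0.07 and 0.17. In RIP eIF4A2FL against input, rho with length was 0.21 over the members and 0.36 over the 10751 genes, and against RIP EV -0.55 and 0.02. Genes share libraries and are not independent replicates, and a 3′ tag method gives about 1 tag per transcript whatever its length. The annotation lists 10 snoRNA entries inside *Gas5*, 8 in *Snhg1*, 5 in *Snhg12*, 3 in *Zfas1*, 2 each in *Snhg5* and *Snhg3*, and 1 each in *Snhg6* and *Snhg8*.

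Most snoRNA rows inside the members held few or no counts in these libraries, and the cause was not tested. All snoRNA rows inside *Gas5*, *Snhg1*, *Snhg5*, *Snhg8*, and *Zfas1* summed to 0 counts. The annotation places these snoRNAs within exons of some host isoform, where a read can be ambiguous between host and snoRNA. Inside the other 3 hosts, *Snora16a*, *Snora73a*, and *Snord87* had at most 13 counts in any library. *Snora73b*, in the *Snhg3* locus, was the exception, with 1820 and 900 counts in input EV, 754 and 965 in input eIF4A2FL, 526 and 754 in RIP EV, and 118 and 157 in RIP eIF4A2FL.

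Among the members, *Snhg3* alone overlapped an annotated gene on the same strand, small RNA genes aside. *Rcc1*, a nucleotide exchange factor for Ran, overlaps *Snhg3* on the same strand and was at 743 and 834 CPM before and 294 and 292 CPM after RIP in EV cells, and at 513 and 868 CPM before and 741 and 411 CPM after in eIF4A2FL cells. The antisense noncoding gene *Gm17300* was at 514 and 91.5 CPM (1052 and 306 reads) in RIP EV and at 0.535 to 2.38 CPM in the other 6 libraries. The replicate with the most *Gm17300* reads, RIP EV replicate 1, held 50 *Snhg3* reads and was also the shallowest library. The strand setting of the counting is not given in the sources used here, so reads of such partners cannot be told apart, and their part in the *Snhg3* values was not tested. The antisense partners of *Gas5* (*Zbtb37*), *Zfas1* (*Znfx1*), and *Snhg6* (*Mcmdc2*) had at most 12.7, 38.7, and 7.17 CPM in any library.

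Noncoding RNAs that stay in the nucleus were set beside the host transcripts, which are exported. Of 11 listed, 7 were tested: *Meg3*, *Rian*, and *Mirg* of the imprinted *Dlk1*–*Dio3* region, the speckle RNA *Malat1*, the paraspeckle RNA *Neat1*, the imprinting regulator *Kcnq1ot1*, and *Firre*. *Xist*, *Airn*, *Ftx*, and *Miat* were under the filter. The study names *Meg3*, *Rian*, and *Malat1* from these same libraries, so they are not independent evidence of their direction. In EV cells *Meg3* was at 781 and 1082 CPM before and 5128 and 6929 CPM after RIP, and in eIF4A2FL cells at 575 and 783 CPM before and 241 and 346 CPM after. It was called higher in RIP EV than in input, as *Snhg12* was. Both of its RIP eIF4A2FL values lay below both of its inputs (log2 fold change -1.5, adjusted p = 0.202).

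Against RIP EV, 4 of 7 nuclear RNAs were lower in RIP eIF4A2FL (*Rian* -5.71, *Malat1* -5.47, *Meg3* -4.63, *Mirg* -4.32, as log2 fold changes), where 5.46% of all genes were lower and 24.8% higher. Their median was -4.32, against -1.19 for the snoRNA hosts. *Kcnq1ot1* was called higher, with 0 counts in both RIP EV libraries and 2.77 and 2.31 CPM in RIP eIF4A2FL, at least 4.56-fold higher (against a floor of 3 counts over both RIP EV libraries), and with it at this bound the median was still -4.32. *Neat1* (1.22), with 0 and 112 reads in RIP EV, and *Firre* (0.00), with 3 and 101 reads there, were not called. Both values depended on RIP EV replicate 2, which held nearly all of their RIP EV reads. Against input in eIF4A2FL cells, 0 of the 7 were called in edgeR on 8 libraries, 4 were lower in DESeq2 (4% of genes), and 5 were lower with edgeR on the 4 libraries compared (8.46% of genes). By order of TMM-scaled CPM, 6 of 7 nuclear RNAs and 5 of 8 snoRNA hosts had both RIP libraries below both inputs, against 29.9% of all genes. The median log2 fold change there was -1.78 for the nuclear RNAs and -0.59 for the snoRNA hosts. Whether the lists differ was not tested. In RIP EV against input EV, 2 nuclear RNAs were higher (*Meg3* 2.69, *Mirg* 2.57; 4.5% of genes higher) and *Kcnq1ot1* was lower, at least 25.9-fold (26.3% of genes lower).

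**Figure D4:**
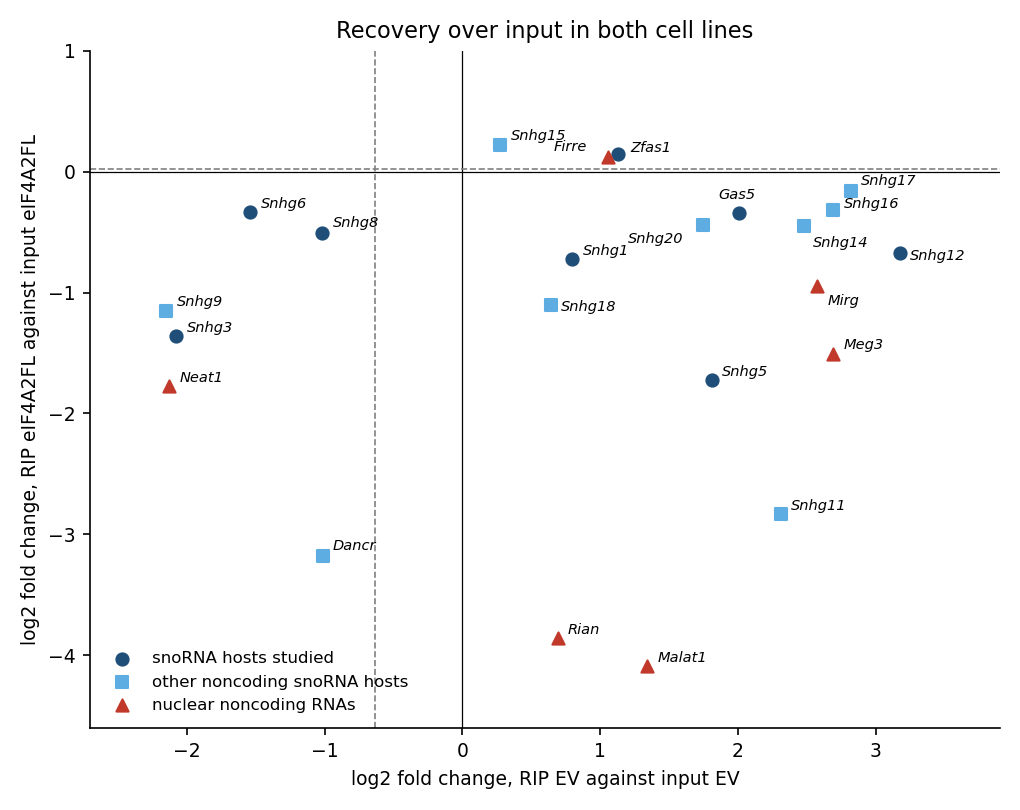
Log2 fold change of RIP over input in EV cells (x axis) and in eIF4A2FL cells (y axis) for the snoRNA hosts described here (circles), other noncoding snoRNA hosts (squares), and nuclear noncoding RNAs (triangles), with the medians of all genes as dashed lines. *Kcnq1ot1*, with 0 counts in RIP EV, is left out. The 8 hosts described here lay between -1.72 and 0.14 on the y axis, the other noncoding hosts between -3.18 (*Dancr*) and 0.22, while *Rian* and *Malat1* lay near -4.

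Other noncoding snoRNA hosts were listed by symbol (*Snhg* with a number, plus *Dancr*), not by the snoRNAs inside them. Those that were called were also lower in RIP eIF4A2FL than in RIP EV. Of 10 with a row, 9 were tested (*Snhg9*, *Snhg11*, *Snhg14* to *Snhg18*, *Snhg20*, and *Dancr*), and 6 were lower in RIP eIF4A2FL than in RIP EV and 0 were higher (5.46% and 24.8% of all genes), with a median log2 fold change of -2.74. *Dancr* was at the threshold (adjusted p = 0.0499), and 4 of 9 were lower with library size alone (4.01% of genes). *Snhg20* was at 146 and 183 CPM in RIP EV, against 36.5 and 32.4 CPM in RIP eIF4A2FL (-2.53, SE 0.382, adjusted p = 0.00662). *Snhg17* was at 75.3 and 118 CPM and at 18.2 and 16.8 CPM (-2.74, SE 0.566, adjusted p = 0.0117). *Snhg11* fell furthest (-5.28), while *Snhg9*, the most abundant of these in the inputs, was at 40.1 and 113 CPM in RIP EV, against 132 and 98.8 CPM in RIP eIF4A2FL (0.32, adjusted p = 0.808). Against input in eIF4A2FL cells, 0 of the 9 were called in edgeR on 8 libraries (0.0558% of genes lower). DESeq2 called 2 lower (4% of genes), as did edgeR on the 4 libraries compared (8.46% of genes).

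Protein-coding genes that host snoRNAs in their introns were called in both directions. Of 183 tested, 31 (16.9%) were lower and 40 (21.9%) higher in RIP eIF4A2FL than in RIP EV, against 5.46% and 24.8% of all genes, so that the higher share was close to that of all genes. Their median log2 fold change was -0.14. Against input in eIF4A2FL cells, with a median of -0.05, 0 were called in edgeR on 8 libraries. DESeq2 called 13 higher and 21 lower there (2.55% and 4% of genes), and edgeR on the 4 libraries compared called 24 higher and 36 lower (8.44% and 8.46%). The highest there were *Rab3gap2* (2.34), *Prrc2a* (2.12), and *Eif4g1* (2.11), the last encoding the scaffold protein that binds eIF4A, and the lowest were *Rps12* (-3.18), *Tpt1* (-3.15), and *Rps13* (-2.99). *Eif4a1* was at 0.24 and *Eif4a2* at -0.64. Ribosomal protein genes and *Tpt1* have near-identical pseudogenes that can take their reads, so these values are uncertain.

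Across the 8 libraries the members did not move as one. Pairwise Pearson r of log2(CPM + 1) was 0.51 to 0.92 among *Gas5*, *Zfas1*, *Snhg1*, *Snhg5*, and *Snhg12*, and 0.63 to 0.85 among *Snhg3*, *Snhg6*, and *Snhg8*, whereas all pairs across these sets were negative (-0.71 to -0.34). The sets were read off the levels, and the 8 points share libraries and groups, so these are descriptions. The members' mean profile averages over both sets and need not resemble any single member. Genes most like this mean were *Pcgf2* (r = 0.97), *Szrd1* (0.95), *Eif1* (0.95), *Epb41l4aos* (0.94), and *Pdcd5* (0.93). *Epb41l4aos*, a noncoding gene with 1 annotated snoRNA inside it, was outside the lists of hosts, which were drawn up by symbol. It was at 305 and 455 CPM before and 434 and 583 CPM after RIP in EV cells. In eIF4A2FL cells it was at 308 and 333 CPM before and 290 and 262 CPM after.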

How the data were processed

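QuantSeq 3′ FWD libraries were mapped to mm10 with STAR (version 2.5.3a), and HTSeq-count (version 0.11.2) counted the reads of each gene, per the methods and the labels. The authors deposited the raw counts, whole numbers with no normalization. Neither the annotation release nor the strand mode is given in the sources used here. Of 52550 gene rows, 52403 matched GENCODE M21, which gave symbols, positions, and structures. Promoter windows came from RefSeq (GRCm38.p6). The summary lines of HTSeq-count (reads without a gene, ambiguous, or aligned more than once, the last 27.0% to 52.1% of the reads) stayed out of library totals and tests.

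Members and lists were chosen with earlier results of these data known. Genes at or above 1 CPM in each of the 4 inputs were tested in one edgeR quasi-likelihood model of all 8 libraries (version 4.0.16, R 4.3.3, TMM factors), and p-values were adjusted over all 10754 genes by the Benjamini-Hochberg method at 0.05. The SE of a log2 fold change is its size over the square root of F. DESeq2 (version 1.42.0), edgeR on 4 libraries, other scalings and filters, the replicate block, and each library left out were alternatives. The scripts were tested on simulated data. All listed genes were named, and protein-coding hosts by the 3 highest and 3 lowest changes against input, plus *Eif4a1* and *Eif4a2*. Replicate numbers did not pair the libraries (correlation of same-numbered deviations -0.07 to 0.13).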

Additional observations from a re-analysis of the deposited data

Results flagged for a closer look

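For 4 of the 8 snoRNA host transcripts, the change from input to RIP differed between eIF4A2FL and EV cells by the interaction term of the edgeR model, and in each case it was lower in eIF4A2FL cells. Among all genes tested, 2.1% were lower and 19.2% higher by this term. With library size alone, 2 members were lower, against 1.54% of genes. These calls also depended on single libraries, as described above. The difference in log2 fold change was -3.85 for *Snhg12*, -3.53 for *Snhg5*, -2.35 for *Gas5*, and -1.52 for *Snhg1*. The recovery behind it was 3.17 in EV cells and -0.68 in eIF4A2FL cells for *Snhg12*, 1.81 and -1.72 for *Snhg5*, 2.01 and -0.34 for *Gas5*, and 0.80 and -0.72 for *Snhg1*. With 2 libraries per group, no test for a library that stands apart could be made.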

How the results depend on the processing

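Scaling by DESeq2 size factors, filterByExpr, and no filter on low counts left the number of called members within 1.5 times of the value given in every comparison, as did the replicate block (4 lower against RIP EV, 0 against input in eIF4A2FL cells, 3 higher in RIP EV against input, 0 between inputs, 4 lower in the interaction). With edgeR on the 4 libraries compared, 0 members were called against RIP EV, 0 in RIP EV against input, and 2 in RIP eIF4A2FL against input, where DESeq2 called 1. Library size alone left 2 called in the interaction. Leaving out single libraries gave 2 to 6 called members against RIP EV, 0 to 2 in RIP eIF4A2FL against input, 1 to 6 in RIP EV against input, 0 to 0 between inputs, and 0 to 6 in the interaction. The counts without single libraries pool calls in both directions. The share of all genes called also changed with the library left out, so these counts alone do not set the members apart. Against RIP EV, the 6 include *Snhg3* and *Snhg6*, called higher without RIP EV replicate 2, where most genes tested were higher. A leave-one-out fit leaves 1 group with a lone library, which is then assumed to vary like the others.

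Of the members' fold changes under the alternatives, 505 kept their direction and side of the threshold, 49 lost and 20 gained a call, and 18 changed sign, all of them from values that had not been called. Most values had not been called to begin with and could not lose a call. The 49 losses thus came from the smaller number that had been called. Without 1 library each, the log2 fold change against RIP EV ran from -0.16 (without RIP EV replicate 1) to 2.95 for *Snhg3* and from -0.11 (without RIP eIF4A2FL replicate 1) to 0.93 for *Snhg8*, that of *Snhg6* in RIP eIF4A2FL against input from -1.10 to 0.21 (without RIP eIF4A2FL replicate 2), and the interaction of *Snhg3* from -0.11 (without RIP EV replicate 1) to 2.99. Between the inputs, the lowest and highest values without 1 library were -0.013 and 0.40 for *Gas5*, -0.18 and 0.34 for *Snhg1*, -0.48 and 0.56 for *Snhg3*, -0.067 and 0.53 for *Snhg5*, -0.45 and 0.34 for *Snhg8*, -0.50 and 0.25 for *Snhg12*, and -0.015 and 0.060 for *Zfas1*, and the replicate block placed *Snhg3* at 0.019. The cause was not tested. The smallest library, RIP EV replicate 1, held 35 reads of *Snhg6* and 50 of *Snhg3*, which limits their precision.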
